A study of Mus musculus with 10 samples.

Results

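Collecting vessel lymphatic endothelial cells (LECs) of mouse ear skin were defined by a fixed rule on read counts of single sorted cells. Wells with at least 50000 non-spike-in reads, at least 200 genes and at most 10% mitochondrial reads were kept. Levels are CPM, read counts scaled to 1000000 non-spike-in reads. A kept well was a LEC where *Prox1*, *Flt4* and *Mmrn1* summed to at least 300 CPM and to more than the blood endothelial genes *Flt1*, *Emcn* and *Podxl*. It was a collecting vessel LEC where *Mmrn2* exceeded *Lyve1*, *Cldn11* was under 300 CPM and 7 cell cycle genes (*Mki67*, *Top2a*, *Ccnb1*, *Ccnb2*, *Cdk1*, *Cdc20* and *Prc1*) summed to under 500 CPM. This selected 148 of 1641 LECs, among 3248 wells kept. The other LECs were 1109 wells that passed the same *Cldn11* and cell cycle limits with *Lyve1* at least as high as *Mmrn2*, 220 wells with *Cldn11* at 300 CPM or more, called *Cldn11*-high LECs here, and 164 cycling wells. In the text, other LECs means the 1109 wells.

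Dermal endothelial cells had been sorted from ear skin by Podoplanin and CD31 into 384-well plates and sequenced with Smart-Seq2, which covers the whole cDNA and has no molecular barcodes. The plates came from 5 mutant mice (*Pik3caH1047R;Cdh5-CreERT2*, Cre+) and 2 control mice, all 5 wk old. Mutant mice had received 4-hydroxytamoxifen (4-OHT) on the dorsal ear at 3 wk. It activates a Cre recombinase driven by the *Cdh5* promoter, active in blood and lymphatic endothelium alike, and so switches on the *Pik3caH1047R* transgene, an oncogenic form of the catalytic PI3K subunit found in lymphatic malformations. Control 1 was a C57BL/6J mouse without 4-OHT, and control 2 a Cre- littermate of the *Pik3caH1047R;Cdh5-CreERT2* strain that had received 4-OHT. The transgene transcript was not analysed here, so which wells had recombined is not known. Another Cre- control mouse was not analysed here.

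Lymph enters blind-ended capillaries whose LECs carry LYVE1 and are held together by discontinuous, button-like junctions. It then passes through collecting vessels, whose LECs have little or no LYVE1, continuous junctions, a basement membrane and a coat of smooth muscle that contracts. Intraluminal valves, lined by LECs with high *Cldn11*, keep lymph from flowing back. MMRN2 (multimerin-2) is an extracellular glycoprotein of endothelium.

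Each of the 9 plates gave 332–375 usable wells, and the collecting vessel LECs summed to 4540459–8023481 reads a mouse against 31067853–141217496 for other LECs. Their median depth was 290838.5 reads and 5584.5 genes a well, against 334698 reads and 6109 genes in other LECs. No wells held identical counts, and no doublet caller was run. By the plate identifiers in the labels, mutants 1–4 were in 1 number series and mutant 5 and both controls in another, so genotype and plate series could be separated only through mutant 5. *Xist* reads marked control 1 and mutants 3–5 as female, and control 2 and mutants 1 and 2 as male.

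The values that chose the cells are a description and were not tested. *Mmrn2* ran from 12.6 to 5567 CPM with a median of 1061, and *Lyve1* from 3.27 to 1613 CPM with a median of 92.8. Every one of these wells held some *Lyve1* reads, and 20 exceeded 500 CPM. For scale, 97.8% of the 1490 blood endothelial wells also held a *Lyve1* read, at a median of 33.2 CPM. In 27 of the 148 wells *Mmrn2* was at most 2 times *Lyve1*. At the edge of the rule, the well just inside had 1573 CPM of *Mmrn2* and 1533 of *Lyve1*, and the well just outside had 79.4 CPM of each. The lymphatic genes of the gate summed to a median of 4339 CPM and the blood endothelial ones to 873. In 83 of 148 wells the lymphatic sum was less than 5 times the blood endothelial sum. *Mmrn2*, which chose the wells, was at 839–1222 CPM in the blood endothelial wells of each mouse. How much blood endothelial RNA the rule took in was not tested. *Emcn* (endomucin) made up most of the blood endothelial sum, at 531–917 CPM in the summed collecting vessel wells of each mouse. It was at 724–1278 CPM in blood endothelial wells, and its log2 ratio to other LECs of the same mouse was 0.52–1.29 (CPM + 1). *Flt1*, the VEGF receptor that marks blood endothelium, stood at 1.58–20 CPM in collecting vessel LECs, against 1.78–18.5 CPM in other LECs and 512–855 CPM in blood endothelial wells.

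The genes that go with the label were checked first. *Foxp2* encodes a forkhead transcription factor, *Ccdc3* a secreted coiled-coil protein, *Fmo2* a flavin-containing monooxygenase and *Serpine2* the protease inhibitor nexin-1. On mouse genome GRCm38 they lie at chr6:14901349-15441977, chr2:5137776-5230878, chr1:162874317-162898726 and chr1:79794197-79861180, and *Mmrn2*, a gene of the rule, at chr14:34375465-34404287. The study picked these markers on overlapping samples, so their direction is not independent evidence. In collecting vessel LECs, *Foxp2* stood at 237 and 237 CPM in controls 1 and 2 and 141, 264, 140.4, 176 and 87.2 CPM in mutants 1–5. The range in other LECs was 16.4–141 CPM, and collecting vessel LECs were higher in all 7 mice (edgeR, log2 fold change 1.90 ± 0.23 (SE), adjusted p = 0.00349). The levels in mutants 1, 3 and 5 lay below the other LECs of control 2, so the 2 classes overlapped between mice although not within them.

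*Ccdc3* showed no such overlap. It was at 1049.5 and 691 CPM in controls 1 and 2 and 648, 1025, 512, 776 and 698 CPM in mutants 1–5, against 67.6–188 CPM in other LECs (log2 fold change 2.55 ± 0.22 (SE), adjusted p = 5.47e-04, edgeR). Of its exon bases, 69.1% are shared with *Gm26776* on the opposite strand, and without strand the reads of the pair cannot be told apart. *Serpine2* was also separate in every mouse, at 827 and 1235 CPM in controls 1 and 2 and 1222, 1319.7, 1233, 808 and 1174 CPM in mutants 1–5 against 320.0–598 CPM (log2 fold change 1.47 ± 0.12 (SE), adjusted p = 5.00e-04, edgeR). *Fmo2* varied most. It reached 1035 and 243 CPM in controls 1 and 2 and 193, 189, 438, 316 and 437 CPM in mutants 1–5, against 15–239 CPM in other LECs (log2 fold change 2.79 ± 0.28 (SE), adjusted p = 0.00113, edgeR). Control 1 stood well above the rest in both classes, and mutants 1 and 2 had the lowest levels in collecting vessel LECs. In the 2 control mice alone, the log2 fold change was 1.19 (adjusted p = 0.535) for *Foxp2* and 1.07 (adjusted p = 0.133) for *Serpine2*, while *Ccdc3* and *Fmo2* passed there, and in mutant mice alone all 4 passed (edgeR). Among wells whose lymphatic sum was at least 5 times the blood endothelial sum, called the stricter lymphatic gate here, *Foxp2* lost its call (1.64, adjusted p = 0.165) and the other 3 kept theirs.

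**Figure D1:**
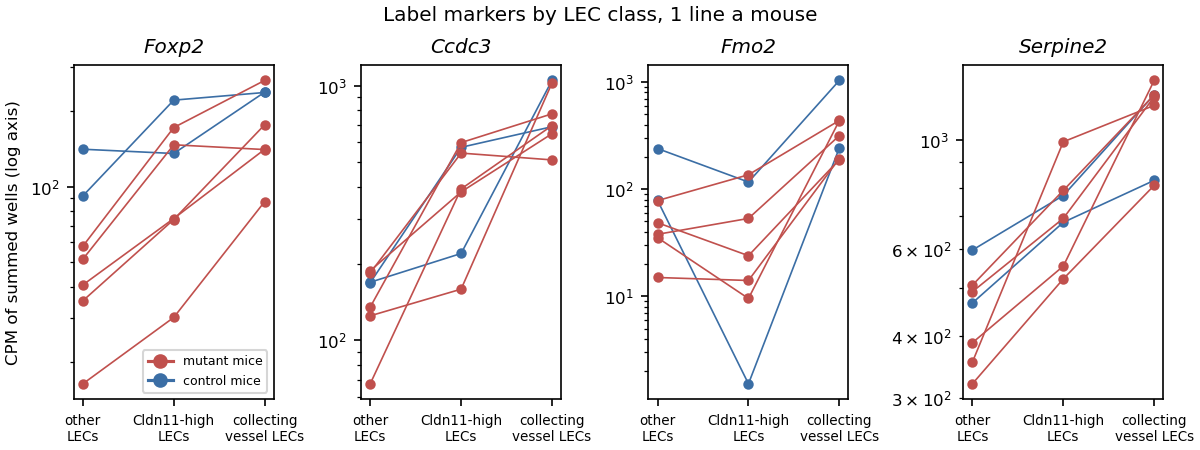
CPM of summed wells on a log axis for *Foxp2*, *Ccdc3*, *Fmo2* and *Serpine2* in other LECs, *Cldn11*-high LECs and collecting vessel LECs, with 1 line for each of the 7 mice (red, mutant; blue, control). Collecting vessel LECs are above other LECs of the same mouse for all 4 genes, and *Cldn11*-high LECs have medians of 135, 393, 23.9 and 693 CPM.

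Single wells did not carry the markers uniformly. Of the 148 collecting vessel LECs, 117 had at least 100 CPM of *Serpine2*, 102 of *Ccdc3*, 75 of *Fmo2* and 59 of *Foxp2*. At least 3 of the 4 were at that level in 81 wells (54.7%, range over mice 34.8–77.3%). The share was 8.57% (4.46–14.3%) of other LECs, 15.5% (5.26–27.8%) of *Cldn11*-high LECs and 0.403% (0–1.64%) of blood endothelial wells. Thus the mice did not overlap between collecting vessel LECs and any of the other classes. In the opposite direction, 14 of the 148 wells reached 100 CPM for none of the 4 markers. Among the 27 wells with *Mmrn2* at most 2 times *Lyve1*, 7 had 3 or more markers, against 37 of 55 at 2 to 10 times and 37 of 66 above 10 times. With regard to blood endothelial signal, 33 of 65 with a lymphatic sum of at least 5 times the blood endothelial sum had 3 or more markers, and so had 48 of 83 of the rest.

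**Figure D2:**
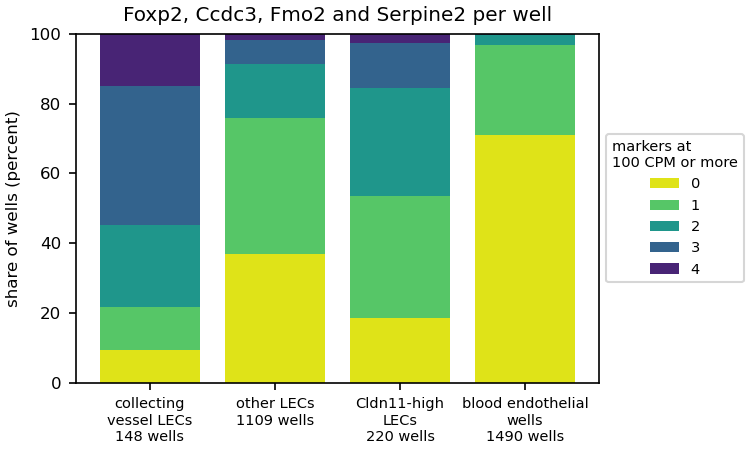
Share of wells (percent) in 4 classes by how many of *Foxp2*, *Ccdc3*, *Fmo2* and *Serpine2* were at 100 CPM or more, from 0 (yellow) to 4 (dark). In collecting vessel LECs 9.46% had none and 14.9% all 4, against 36.8% and 1.89% of other LECs.

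Counted as wells with any read after thinning each well to 50000 reads, *Foxp2* was found in 60.1% of collecting vessel LECs, 27.8% of other LECs and 10.1% of blood endothelial wells, which have little of it (1.12–21.3 CPM). Without thinning the shares were 73%, 53.4% and 30.9%, at median depths of 290838.5, 334698 and 258916 reads. The upper quartile of *Foxp2* a well was 288 CPM in collecting vessel LECs and 8.57 CPM in other LECs. For this gene, presence of a read therefore marked the class less sharply than the level did.

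Whether mutant mice held fewer collecting vessel LECs was asked next, with the mouse as the unit. They made up 14.8% of LECs in control 1 (27 of 183) and 10.9% in control 2 (19 of 175). In mutants 1–5 the shares were 12.5%, 11.8%, 7.99%, 9.34% and 3%. Mutants 1 and 2 lay between the 2 controls, mutants 3 and 4 below them, and mutant 5 lowest, with 11 of 367 LECs (95% Wilson interval 1.68–5.29%, which covers counting error only). The mean was 8.92 ± 3.78% (SD, n = 5) in mutant and 12.8% (n = 2) in control mice, a difference of -3.89 percentage points (2-sided exact permutation test, p = 0.286, where the smallest p that 21 splits allow is 0.0952). The groups overlapped. With *Mmrn2* required to exceed 2 times *Lyve1* they did not, at 2.45–8.79% in mutant and 9.14–13.7% in control mice (a difference of -4.44 points, exact permutation p = 0.0952, the smallest possible). Cycling wells, which the rule keeps out of the class, count among the LECs. As a share of non-cycling LECs the means were 10.3% in mutant and 13.1% in control mice (a difference of -2.84 points, exact permutation p = 0.381). The direction turned under the stricter lymphatic gate (lymphatic sum at least 5 times the blood endothelial sum), with 6.11% in mutant and 5.28% in control mice (exact permutation p = 0.571). Within the number series that held both genotypes, mutant 5 was below both controls. Mutants 1–4 had no control in theirs. Cells were sorted by surface markers, so shares are of sorted wells and not of the tissue.

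**Figure D3:**
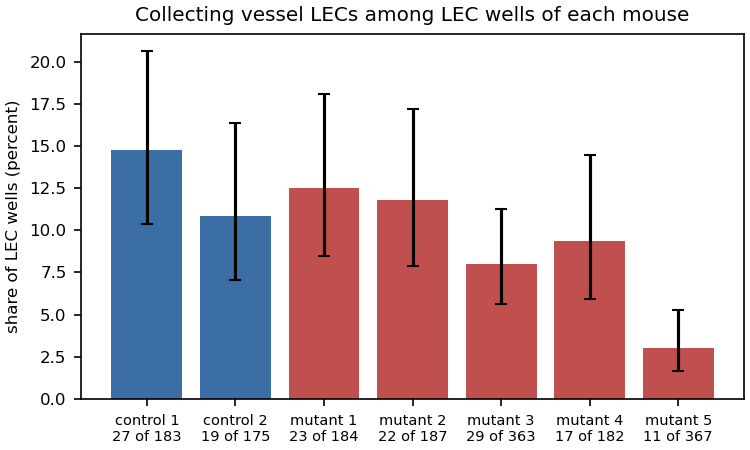
Share of LEC wells that were collecting vessel LECs (percent) in each of 2 control (blue) and 5 mutant mice (red), with 95% Wilson intervals and the number of wells under each bar. Mutant 5 is lowest, and mutants 1 and 2 lie between the controls.

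Collecting vessel LECs were then compared with other LECs of the same mouse, over summed wells with the mouse as a block. The 16 genes of the rule were left out. Of 13818 genes, 317 were called (2.29%), of which 159 were higher (1.15%) and 158 lower (1.14%) in collecting vessel LECs at an adjusted p under 0.05 (edgeR). Called or not, 1.74% of genes were higher and 5.21% lower in all 7 mice. The higher genes included secreted factors, endothelial junction and vascular tone genes and lipid handling genes, and the lower ones included lymphatic capillary and chemokine-related genes. As both classes were drawn from readings of the same wells, genes that vary with *Mmrn2* or *Lyve1* were bound to differ, and the counts describe that. The median log2 fold change over all genes tested was -0.24, and medians of gene lists are given against it. All 317 called genes kept their direction with DESeq2 size factors, and 313 were called again. Under the stricter lymphatic gate 290 of the 317 were tested, of which 288 kept their direction and 134 were called again. With equal numbers of wells a mouse and class (11 of each), 19 genes passed, and without mutant 1, 2, 3, 4 or 5 it was 179, 168, 211, 188 and 173. With DESeq2 the split was 557 higher and 1352 lower, and under the stricter lymphatic gate, which kept 65 of 148 wells, 61 higher and 259 lower. The median log2 fold change over all genes tested was -0.71 under that gate, which is the baseline for its values below. Of the 50 genes named by rule, 25 lost their call under that gate and none turned, and how many calls of each list held is given with the list.

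**Figure D4:**
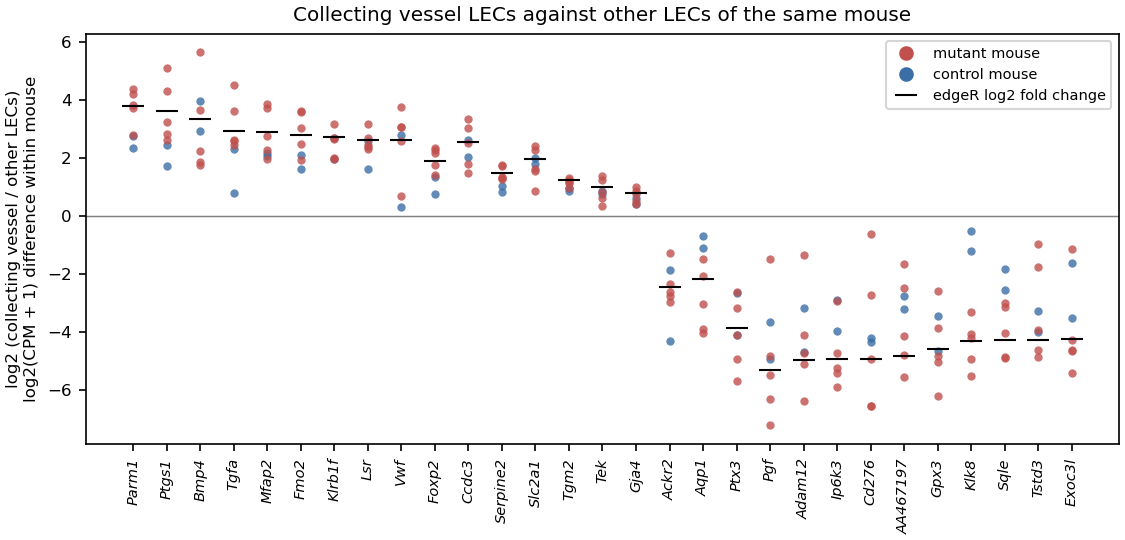
Log2 difference of CPM + 1 between collecting vessel and other LECs of the same mouse, for named genes with the largest changes and a selection from the gene lists, with 1 point a mouse (red, mutant; blue, control) and the edgeR log2 fold change as a bar. All 7 points of each gene lie on the same side of 0.

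Among the named genes with the largest rise, 3 described first encode factors that act outside the cell. *Bmp4*, a bone morphogenetic protein ligand, was at 305 and 152 CPM in controls 1 and 2 and 93.1, 382, 149, 22.5 and 52.3 CPM in mutants 1–5, against 5.96–18.8 CPM (log2 fold change 3.35 ± 0.48 (SE), adjusted p = 0.00782). Mutant 4 was lowest, and no collecting vessel value overlapped other LECs. *Bmp4* just missed the threshold under the stricter gate (3.51, adjusted p = 0.0519), where *Tgfa* and *Mfap2*, next, passed. *Tgfa*, a ligand of the EGF receptor, was at 101 and 79.4 CPM in controls 1 and 2 and 139, 172, 160.1, 170.5 and 98.7 CPM in mutants 1–5 against 6.5–45.4 CPM (log2 fold change 2.92 ± 0.43 (SE), adjusted p = 0.00853). *Mfap2*, a protein of elastic microfibrils, stood at 33.7–273 against 7.81–25.7 CPM (log2 fold change 2.90), and its median in *Cldn11*-high LECs was 111 CPM.

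The remaining large rises were in membrane proteins and enzymes. *Lsr*, the angulin of tricellular junctions that also binds lipoproteins, was at 224 and 107 CPM in controls 1 and 2 and 202, 316, 352, 256 and 351 CPM in mutants 1–5, with 33.9–62.6 CPM in other LECs (log2 fold change 2.64 ± 0.20 (SE), adjusted p = 4.14e-04). No collecting vessel value overlapped other LECs, although 44.7% of its exon bases are shared with predicted genes. *Parm1*, a mucin-like membrane protein, stood at 24.9–189.6 against 2.74–36.7 CPM (log2 fold change 3.78). *Klrb1f*, of the killer cell lectin-like receptor family, stood at 28.8–107 against 3.67–16.2 CPM (2.71 on the log2 scale) and was read in 39 of 148 wells. *Ptgs1* (cyclooxygenase 1) stood at 31.8–109.6 against 0.653–24.1 CPM (3.61), and *Vwf* (von Willebrand factor) at 4.58–260.4 against 3.45–36.6 CPM (2.62), with control 2 near the level of other LECs. Under the stricter gate *Lsr* passed, and the calls of *Parm1* (3.11, adjusted p = 0.126), *Klrb1f* (1.81, adjusted p = 0.463), *Ptgs1* (0.73, adjusted p = 0.857) and *Vwf* (1.56, adjusted p = 0.422) were lost.

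The study's gene list for its collecting vessel cluster, chosen partly on these samples and so not independent, had 27 members tested, of which 20 were higher and 0 lower, with a median log2 fold change of 1.57. All 27 had a positive fold change, and 11 of the 20 calls held under the stricter gate. *Tgm2*, the cross-linking enzyme transglutaminase 2, was at 2702 and 2121 CPM in controls 1 and 2 and 2737, 3890.3, 3532, 2940.5 and 2105 CPM in mutants 1–5, against 929–1636 CPM in other LECs (log2 fold change 1.24 ± 0.068 (SE), adjusted p = 3.70e-05). No mouse overlapped, and 145 of 148 wells held at least 100 CPM. *Slc2a1*, the glucose transporter GLUT1, was at 219 and 292 CPM in controls 1 and 2 and 324, 379, 253, 116 and 432 CPM in mutants 1–5, against 59.7–141 CPM (log2 fold change 1.96 ± 0.20 (SE), adjusted p = 0.00107; 1.91, adjusted p = 0.0504 under the stricter gate). This was the member called of 16 glucose uptake and glycolysis genes tested (1 higher, 0 lower, median -0.11). The 7 list members that did not pass had log2 fold changes from 0.31 (*Sparc*, a matrix glycoprotein) to 1.91 (*Prkar1b*, a regulatory subunit of protein kinase A).

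Collecting vessels contract, and genes of vascular tone and haemostasis were examined as a group. Of 20 nitric oxide, endothelin, prostanoid and anticoagulant genes tested, 6 were higher and 0 lower (median 0.39). *Nos3*, the endothelial nitric oxide synthase, was at 583 and 161 CPM in controls 1 and 2 and 216, 370.4, 268, 333 and 475 CPM in mutants 1–5, against 77.3–278 CPM (log2 fold change 1.38 ± 0.28 (SE), adjusted p = 0.0324). Control 2 and mutant 1 were lowest. *Cav1*, which forms caveolae and binds NOS3, was at 1621–2642 against 1139.6–2051 CPM (0.60), and *Slco2a1*, the prostaglandin transporter, at 231–682 against 35.2–273 CPM (2.04). *Serpine2*, *Ptgs1* and *Vwf*, above, were the others. Blood endothelial wells held 311–437 CPM of *Nos3*, 2519–3649 of *Cav1* and 124–887 of *Slco2a1*, within or above the collecting vessel range in part or whole, but 31.1–105 of *Serpine2*. Under the stricter gate 2 of the 6 calls held (*Serpine2* and *Cav1*), and *Nos3* (1.31, adjusted p = 0.052), *Slco2a1* (2.07, adjusted p = 0.0933), *Ptgs1* and *Vwf* lost theirs. *Edn1*, the endothelin 1 precursor, did not pass at 3.15 ± 0.94 (SE) on the log2 scale (adjusted p = 0.124), and the flow-responsive factors *Klf2* and *Klf4* had -0.56 and -0.49 (adjusted p = 0.307 and 0.484).

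Called differences in junction genes ran from small, in *Cldn5* and *Pecam1*, to the large one of *Lsr* (above). Of 15 tested, 5 were higher and 0 lower (median 0.57). *Cldn5*, the main endothelial claudin, was at 2277–2988 against 1863–2569 CPM (log2 fold change 0.37 ± 0.062 (SE), adjusted p = 0.0128), and *Pecam1* (CD31) at 1595–2078 against 1091–1670.1 CPM (log2 fold change 0.42 ± 0.067 (SE), adjusted p = 0.0115). Both were higher in 7 of 7 mice, with ranges that overlapped between mice. *Esam*, an adhesion molecule of tight junctions, had a larger log2 fold change of 1.22 (90.3–347 against 85.5–139 CPM). *Gja4* (connexin 37) was at 327–1029 against 226–591 CPM (log2 fold change 0.80 ± 0.10 (SE), adjusted p = 0.00395), and its median in *Cldn11*-high LECs was 765 CPM. The other connexin of lymphatic vessels, *Gja1* (connexin 43), did not pass at 0.87 on the log2 scale (adjusted p = 0.0833). Of the junction calls, 3 of 5 held under the stricter gate (*Cldn5*, *Pecam1* and *Lsr*), and *Esam* (0.91, adjusted p = 0.231) and *Gja4* (0.71, adjusted p = 0.3) lost theirs.

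Valve genes were partly shared. Of 14 tested, 2 were higher (*Gja4*, above, and *Efnb2*, the membrane ligand ephrin-B2, with a log2 fold change of 1.14) and 0 lower. The valve transcription factor genes *Foxc2* and *Gata2* had log2 fold changes of 0.73 and 1.02 but missed the threshold (adjusted p = 0.061 and 0.061), and *Itga9*, the valve integrin gene, had -0.94 (adjusted p = 0.118). Of 21 lymphatic and endothelial transcription factors tested, 3 were higher and 0 lower. These were *Foxp2*, the ETS factor *Fli1* (1.10, higher in 6 of 7 mice) and the FOXO factor *Foxo1* (1.13, 7 of 7 mice). *Foxo1* was at 220.2 and 100.1 CPM in controls 1 and 2 and 223, 234, 103, 284 and 171 CPM in mutants 1–5, against 64.8–113 CPM in other LECs. Under the stricter gate neither valve call held, and of the 3 transcription factors *Fli1* passed while *Foxo1* did not (0.84, adjusted p = 0.547).

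FOXO factors are held out of the nucleus by PI3K and AKT signaling, so FOXO-responsive genes were listed next to them. Of 16 FOXO genes and targets tested, 2 were higher (*Foxo1* and *Txnip*, an inhibitor of thioredoxin and glucose uptake) and 0 lower, with a list median of -0.34. *Txnip* was at 1669.6–3437 against 1132–3059.8 CPM (log2 fold change 0.74 ± 0.095 (SE), adjusted p = 0.00417). Of 21 PI3K, AKT and mTOR pathway genes, none was called in either direction by edgeR or by DESeq2 (median -0.59). *Pik3ca* itself was at 0.95–42.8 against 22.4–44.7 CPM.

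Lipid handling genes had a list median of 1.00, with 6 of 14 higher and 0 lower. *Fabp4*, a fatty acid binding protein, was at 394 and 482 CPM in controls 1 and 2 and 301, 119.7, 39.3, 129 and 231 CPM in mutants 1–5, against 21.3–112 CPM (log2 fold change 2.28 ± 0.29 (SE), adjusted p = 0.00395). *Fabp5* (2.56) and *Scarb1*, the HDL receptor (1.62), were also higher in 7 of 7 mice. *Apoe* (apolipoprotein E) was at 1711 and 216 CPM in controls 1 and 2 and 354, 724, 561, 353 and 635 CPM in mutants 1–5, against 21.1–307 CPM (log2 fold change 2.88 ± 0.54 (SE), adjusted p = 0.0234). The class was higher in 6 of 7 mice, since in control 2 the 2 classes were at 216 and 227 CPM. Under the stricter gate 2 of the 6 calls held (*Lsr* and *Cd300lg*), and *Fabp4* (1.58, adjusted p = 0.164), *Apoe* (1.92, adjusted p = 0.33), *Fabp5* (0.84, adjusted p = 0.755) and *Scarb1* (0.37, adjusted p = 0.794) lost theirs. *Scarb1* was at 1759–2446 CPM in blood endothelial wells.

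Basement membrane and matrix genes were mostly not called, with 3 of 23 higher, 0 lower and a median of 0.081. Besides *Tgm2*, *Lamb1* (laminin β1; 0.83) and *Bgn* (biglycan, a proteoglycan; 1.05) passed. Of 24 genes of endothelial and mural cell exchange, *Bmp4* and *Tek* were higher and 0 lower (median 0.016). *Tek*, the angiopoietin receptor TIE2, was at 352 and 357 CPM in controls 1 and 2 and 471, 400.4, 534, 450.0 and 209 CPM in mutants 1–5, against 166–258 CPM (log2 fold change 1.01 ± 0.14 (SE), adjusted p = 0.00665). Mutant 5 was lowest and within the range of other LECs, although above those of its own mouse. *Tgm2* passed under the stricter gate, and *Lamb1*, *Bgn* and *Tek* (0.81, adjusted p = 0.31) lost their calls.

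Several genes raised in collecting vessel LECs are also genes of blood endothelium. Of 14 blood endothelial genes outside the rule, 4 were higher and 0 lower (median 0.99), and the whole list of 15 summed to 1841–3746 CPM a mouse against 1443–2188 in other LECs. *Plvap*, of the diaphragms of fenestrae and caveolae, was at 1337 and 1395 CPM in controls 1 and 2 and 1231, 1144, 753, 1273 and 660.4 CPM in mutants 1–5, against 420.1–712 CPM in other LECs (log2 fold change 1.18 ± 0.12 (SE), adjusted p = 0.00134) and 2082–3978 CPM in blood endothelial wells. *Vwf*, at 4.58–260.4 CPM in collecting vessel LECs, was at 694–1849.5 CPM in blood endothelial wells, where *Apoe* was at 711–1663, *Ptgs1* at 77.5–344, *Fabp4* at 1523–2233 and *Cd300lg* at 665–1344 CPM. In contrast, blood endothelial wells held 1.7–15.4 CPM of *Parm1*, 1.29–16.8 of *Tgfa*, 0.0312–7.46 of *Klrb1f* and 12.9–60.5 of *Ccdc3*, all under the lowest collecting vessel value of those genes. Under the stricter lymphatic gate *Plvap* (0.97, adjusted p = 0.024) and *Cd300lg* (1.34, adjusted p = 0.0267) kept their calls, *Vwf*, *Apoe*, *Ptgs1* and *Fabp4* lost theirs, and of the genes low in blood endothelial wells *Tgfa* and *Ccdc3* (2.72, adjusted p = 0.00604) kept theirs and *Parm1* and *Klrb1f* did not. Other raised genes went both ways. Blood endothelial wells held 61.6–238 CPM of *Fmo2*, 30.5–153 of *Bmp4*, 100–443 of *Slc2a1*, 396–536 of *Tek* and 1492–1935 of *Esam*. These ranges reached or passed the lowest collecting vessel value of each gene. *Serpine2* (31.1–105), *Lsr* (36.4–77.3) and *Tgm2* (912–1774) stayed under it. The part of blood endothelial RNA in these differences was not tested further.

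Lymphatic capillary genes other than *Lyve1*, which is in the rule, were lower where they were called, with the exception of *Stab1*. Of 15 tested, 4 were lower and 1 higher (median -0.67). *Ackr2*, a receptor that scavenges inflammatory chemokines, was at 24.4 and 62.2 CPM in controls 1 and 2 and 61.9, 93.9, 301, 138 and 129.6 CPM in mutants 1–5, against 229.9–1022 CPM in other LECs (log2 fold change -2.44 ± 0.31 (SE), adjusted p = 0.00395). *Aqp1*, a water channel, was at 316 and 244 CPM in controls 1 and 2 and 234, 35.5, 118, 41 and 64.7 CPM in mutants 1–5, against 397–681 CPM (log2 fold change -2.18 ± 0.43 (SE), adjusted p = 0.0291). *Ptx3* (pentraxin 3) was at 1.87 and 29.3 CPM in controls 1 and 2 and 66.1, 10.8, 39.8, 24.9 and 5.23 CPM in mutants 1–5, against 47.8–448 CPM (log2 fold change -3.85 ± 0.42 (SE), adjusted p = 0.0018). Each gene was lower in 7 of 7 mice. Control 1 had the lowest *Ackr2* and *Ptx3* and the highest *Aqp1*, and only *Aqp1* of the 3 did not overlap between mice. For *Ptx3* the level in other LECs went with genotype, at 47.8–190 CPM in control and 317–448 CPM in mutant mice. *Stab2*, a scavenger receptor, was at 0.143–12 against 3.2–45.6 CPM, but 1 well held 70.4% of its reads. Its relative *Stab1* was higher (log2 fold change 0.39 ± 0.075 SE, 7 of 7 mice). *Reln* and *Ccl21a*, which are typical of capillary LECs, had log2 fold changes of -0.29 and -0.60 and were not called (adjusted p = 0.462 and 0.0827). Under the stricter gate *Ptx3* and *Aqp1* kept their calls, and *Ackr2* (-2.10, adjusted p = 0.087), *Stab2* and *Stab1* lost theirs.

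Of 24 chemokine, adhesion and checkpoint genes, 4 were lower and 0 higher (median -0.033). *Cd200*, an inhibitory ligand for myeloid cells, was at 104 and 81.2 CPM in controls 1 and 2 and 94.2, 68.7, 184, 95.6 and 101 CPM in mutants 1–5, against 187–324 CPM (log2 fold change -1.12 ± 0.18 (SE), adjusted p = 0.0114). All mice were apart. *Cd276* (the checkpoint ligand B7-H3) and *Ccl2*, a monocyte chemoattractant, were the other 2 besides *Ackr2*. For *Ccl2* 1 well held 84.4% of the reads of collecting vessel LECs, and it was lower in 6 of 7 mice. None of the 4 calls held under the stricter gate, where *Cd200* had -1.78, adjusted p = 0.0682.

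The 10 named genes with the largest fall were at low levels in collecting vessel LECs, mostly below 20 CPM, with few wells behind the exceptions. *Pgf*, a ligand of the VEGF receptor FLT1, was at 2.37 and 1 CPM in controls 1 and 2 and 1.77, 0.475, 79.2, 2.2 and 4.14 CPM in mutants 1–5, against 41.4–252 CPM in other LECs (log2 fold change -5.31 ± 0.79 (SE), adjusted p = 0.00853). The value of mutant 3 stood apart, and 1 well held 49.9% of all *Pgf* reads of the class. *Gpx3*, a secreted glutathione peroxidase, was at 2.87 and 4.58 CPM in controls 1 and 2 and 11.6, 1.43, 1.5, 14.3 and 2.83 CPM in mutants 1–5, against 60.5–182 CPM (log2 fold change -4.58 ± 0.54 (SE), adjusted p = 0.00293), with no mouse overlapping. *Ip6k3* (-4.93), *Adam12* (-4.96), *Cd276* (-4.92), *AA467197* (-4.83), *Klk8* (-4.30), *Tstd3* (-4.27) and *Exoc3l* (-4.24) were lower in 7 of 7 mice. For *Klk8*, a kallikrein-related protease, this rested on mutant mice: other LECs held 65.4–326 CPM in mutant but 0.971–1.29 CPM in control mice, where collecting vessel LECs had 0.374 and 0 CPM. Other LECs of control mice were below those of mutants for *Adam12*, *Ip6k3*, *Cd276*, *AA467197*, *Pgf*, *Exoc3l* and *Tstd3* too. *Sqle* (squalene epoxidase; -4.28) was the member called of 23 sterol and fatty acid synthesis genes, whose median was -0.99. Of 14 VEGF family, adrenomedullin and integrin genes, *Itgb1* was lower (-0.38; -0.31, adjusted p = 0.2 under the stricter gate) and 0 higher, and of 18 immediate-early and heat shock genes none was called by edgeR, with 1 higher and 2 lower by DESeq2.

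Markers of other skin cells were summed as well. Keratinocyte genes came to 16.2–1483 CPM a mouse in collecting vessel LECs (66.7–635 in other LECs), fibroblast genes to 1.9–3037 CPM (28.3–611), mural genes to 17.7–153 CPM (36.2–222), immune genes to 0.218–77.5 CPM (12.3–48.9) and glial and melanocyte genes to 1.09–14.2 CPM (3.89–95.3). The high keratinocyte sum was in mutant 4, where 1 well held 97.9% of it, and the high fibroblast sum in mutant 5, where 1 well held 98.6%. No gene of these 5 lists was called by edgeR, and DESeq2 called 8 lower and 0 higher. Reads were found for all 10 keratinocyte, all 10 fibroblast and all 11 mural genes, 10 of 11 immune genes and 6 of 8 glial and melanocyte genes. Without wells whose 5 lists summed to 1000 CPM or more, 238 genes passed, of which 222 were among the 317.

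The study asked how mutant PI3K alters dermal endothelium, and collecting vessel LECs of mutant mice were compared with those of control mice. No gene passed an adjusted p under 0.05 in edgeR (0 of 13193, 0.0%), while 700 had an unadjusted p under 0.05 (5.31%). DESeq2 called 174 (1.32%), of which 158 were higher and 16 lower in mutant mice. All 5 mutants were above both controls for 4.25% of genes and below them for 6.83%. In simulated data of this design, edgeR recovered 0% of changes of 1 and 1% of changes of 2 on the log2 scale. DESeq2 recovered 4.04% and 25.3%, so the 0 calls of edgeR cannot show that few genes differed. The markers of the label did not differ beyond their spread: the log2 fold change was -0.49 ± 0.41 (SE) for *Foxp2*, -0.19 ± 0.28 for *Ccdc3*, -0.96 ± 0.51 for *Fmo2* and 0.23 ± 0.23 for *Serpine2*. *Ccdc3*, *Fmo2* and *Serpine2* changed sign when control 1 was left out, to 0.16, 0.45 and -0.022.

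The study also describes an intermediate LEC cluster with both capillary and collecting vessel genes, in which nearly all cells came from mutant mice. The rule sets no limit against such cells, and their part in the differences between genotypes was not tested. The genes that follow were chosen after their values were seen, among those that DESeq2 called or whose mice did not overlap. *Fkbp10*, a chaperone of collagen folding, was at 189.8 and 214 CPM in controls 1 and 2 and 487, 571, 409, 619 and 646 CPM in mutants 1–5 (2.83-fold, edgeR adjusted p = 0.596; DESeq2 adjusted p = 8.32e-05). It had the smallest edgeR p-value. *Nectin2*, an adhesion receptor, was at 397 and 373 CPM in controls 1 and 2 and 834, 908, 792, 607 and 870.0 CPM in mutants 1–5 (log2 fold change 1.12 ± 0.23 (SE), adjusted p = 0.596 in edgeR and 6.89e-04 in DESeq2). *Thbd* (thrombomodulin), an anticoagulant receptor of the study's collecting vessel list, was at 303 and 237 CPM in controls 1 and 2 and 861, 605, 482, 1263 and 894 CPM in mutants 1–5 (log2 fold change 1.66 ± 0.37 (SE), adjusted p = 0.596 in edgeR and 0.00172 in DESeq2). In all 3 the lowest mutant exceeded the higher control. The same held for *Lipa*, the lysosomal acid lipase, at 37.6–201 CPM over all mice, *Ptn* (pleiotrophin) at 68.1–692 CPM and *Itga5*, the fibronectin receptor subunit, at 159–453 CPM, each called by DESeq2 (adjusted p = 2.59e-04, 9.89e-04 and 0.0123) and not by edgeR.

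Gene lists are given by the number of members whose mice did not overlap, beside the 4.25% and 6.83% of all genes. Of 16 glucose uptake and glycolysis genes, 4 were higher in all mutants and 0 lower, with a median log2 fold change of 0.58 against 0.067 over all genes. *Eno1* (enolase) was at 218 and 329 CPM in controls 1 and 2 and 384, 469.6, 473, 375 and 465 CPM in mutants 1–5. *Pgam1* (phosphoglycerate mutase) and *Ldha* (lactate dehydrogenase) were also apart, at log2 fold changes of 0.86 and 0.56, and *Slc16a3*, the lactate transporter, was under 1 CPM in 5 of the 7 mice. Of 14 lipid genes, 4 were lower and 0 higher (median -0.61). *Gpihbp1*, which holds lipoprotein lipase on endothelium, was at 458 and 578 CPM in controls 1 and 2 and 194, 326, 171, 141 and 197 CPM in mutants 1–5 (log2 fold change -1.27 ± 0.33 (SE)). Of 14 blood endothelial genes, 3 were lower (*Plvap*, *Cd300lg* and *Gpihbp1*), and the list summed to 1841–2762 CPM in mutant and 3057–3746 CPM in control mice. Its part in these differences was not tested.

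Immediate-early genes had lower values in mutant mice, without a call. Of 17 immediate-early and heat shock genes, 5 were lower in all mutants and 0 higher (median -0.89), and the list summed to 1603–3148 CPM in mutant and 3941–6825 CPM in control mice. *Fos*, an AP-1 subunit, was at 867 and 381 CPM in controls 1 and 2 and 19.1, 2.53, 121, 16.5 and 56.9 CPM in mutants 1–5 (log2 fold change -3.78 ± 0.95 (SE), adjusted p = 0.751, edgeR). *Zfp36*, which speeds the decay of cytokine mRNAs, was at 592 and 473 CPM in controls 1 and 2 and 29.4, 19.8, 41.2, 23.6 and 203 CPM in mutants 1–5 (log2 fold change -2.99 ± 0.79 (SE), adjusted p = 0.751, edgeR). This gene passed when mutant 5 was left out. Other LECs of the same mice also had more *Fos* in controls (517–824 CPM) than in mutants (59.7–312 CPM). Mutant 5, in the plate series of the controls, was also below both. Of 16 FOXO genes, 20 PI3K pathway genes and 22 sterol genes, 0, 0 and 0 were higher and 0, 1 and 0 lower in all mutants.

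Lastly, it was tested whether the mutant effect differed between collecting vessel and other LECs, as the interaction of genotype and class with the mouse as a block. No gene passed in edgeR (0 of 17704, 0.0%), 770 had an unadjusted p under 0.05 (4.35%), and DESeq2 called 179 (1.01%). In simulated data edgeR recovered 0% of such differences of 1 and 7% of those of 2 on the log2 scale. DESeq2 recovered 2% and 21%. The genes named here were again chosen after their values were seen. *Trp53i11*, of the study's collecting vessel list, had the smallest edgeR p-value. It was at 333 and 417 CPM in controls 1 and 2 and 506, 289.7, 321, 288 and 506 CPM in mutants 1–5 in collecting vessel LECs, and at 42.1–64.2 CPM in control and 168–459.8 CPM in mutant mice in other LECs (interaction -2.46 ± 0.31 SE on the log2 scale, adjusted p = 0.21 in edgeR and 1.38e-06 in DESeq2). The mice overlapped in collecting vessel LECs and were apart in other LECs.

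*Slco2a1* had the same form. It was at 559 and 364 CPM in controls 1 and 2 and 301, 531, 376, 231 and 682 CPM in mutants 1–5 in collecting vessel LECs, and at 35.2–36.3 CPM in control and 124–273 CPM in mutant mice in other LECs (-2.42 ± 0.40 SE, adjusted p = 0.998 in edgeR and 0.00163 in DESeq2). *Cd34*, a sialomucin of endothelium, was at 201 and 128 CPM in controls 1 and 2 and 332, 57.5, 49.3, 17.4 and 165 CPM in mutants 1–5 in collecting vessel LECs, and at 14.5–52.6 CPM in control and 357–619 CPM in mutant mice in other LECs (-5.13 ± 1.09 SE, adjusted p = 0.998 in edgeR and 0.00141 in DESeq2). *Reln*, a secreted glycoprotein of capillary LECs, was at 369–690.5 CPM in collecting vessel LECs of all mice, and at 1041–1183 CPM in control and 349–776 CPM in mutant mice in other LECs. The comparison of genotypes and the interaction share the collecting vessel samples.

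**Figure D5:**
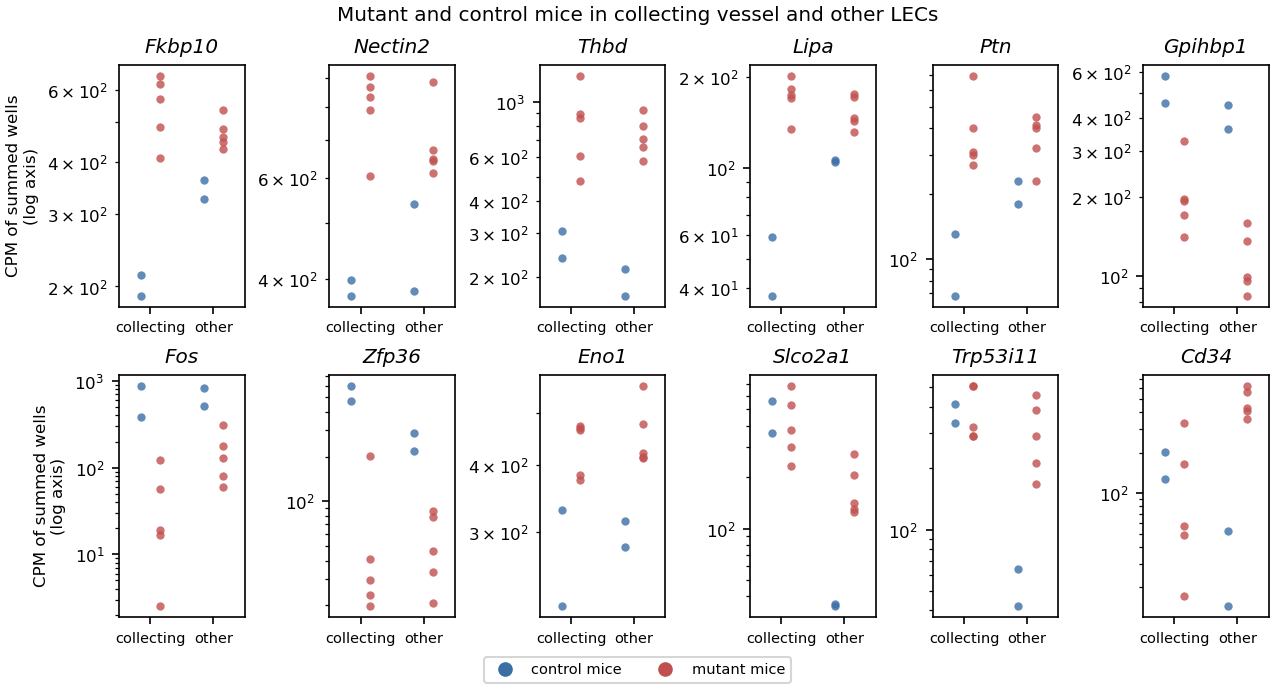
CPM of summed wells (log axes) in collecting vessel and other LECs of 2 control (blue) and 5 mutant mice (red), for 12 genes chosen after their values were seen. Mice are apart in collecting vessel LECs for *Fkbp10*, *Nectin2*, *Thbd*, *Lipa*, *Ptn*, *Gpihbp1*, *Fos*, *Zfp36* and *Eno1*, and overlap there for *Slco2a1*, *Trp53i11* and *Cd34*.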

How the data were processed

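Read counts per gene and well, as deposited by the authors, were used for 9 plates (384 wells each, 99738886–151102969 reads a plate). The authors made these counts by aligning to GRCm38 and the chicken *PIK3CA* sequence with TopHat2 2.1.1, removing duplicates with SAMtools 0.1.18 and counting with featureCounts. The annotation version is not given in the sources used here, and symbols and positions came from GENCODE vM21 (46005 of 46517 Ensembl genes).

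Wells were classed by the rule, and plates of 1 mouse were pooled. Counts were summed per mouse and class and tested by the quasi-likelihood F test of edgeR 4.0.16 after TMM and filterByExpr (R 4.3.3), with DESeq2 1.42.0 as an alternative. The SE is the log2 fold change over the root of F. Adjusted p-values were by Benjamini-Hochberg over all genes tested, without the 16 genes of the rule, and a gene was called under 0.05. Scripts were tested on simulated data. Printed levels are CPM of plain sums. Shares were compared by exact permutation over 7 mice. Mice are the replicates. Python 3.11.15, scipy 1.17.1 and matplotlib 3.10.9 were used.

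The text names the label markers, the 10 calls of greatest change per direction (average log2 CPM 4 or more, 7 of 7 mice alike, or groups apart between mice, no predicted genes) and, per list and direction, up to 4 calls of smallest adjusted p. The members and lists were chosen with earlier results of these data known. 1 named item is not reported here. Reads without molecular barcodes are not independent molecules. Alternatives were DESeq2, its size factors, no count filter, each mouse left out, other gates and comparators, thinning to 50000 reads, equal wells, blocks, plate terms and first plates. Added after seeing the data were the removal of wells of mixed content and sex as a term.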

Additional observations from a re-analysis of the deposited data

Results flagged for a closer look

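Among the 5 mutant mice, 25 measures of collecting vessel LECs (the share of LECs, *Mmrn2*, the other label markers and the named genes with the largest changes) were checked for a mouse far from the others by Dixon's ratio. Chance sets apart about 1 in 20 such groups. *Serpine2* was low in mutant 4, at 808 CPM. *Pgf* was high in mutant 3, at 79.2 CPM, as was *Cd276*, at 80.9 CPM. *Adam12* was high in mutant 1, at 42.5 CPM, as was *Exoc3l*, at 18.1 CPM. *Ip6k3* was high in mutant 4, at 17.2 CPM. For *Pgf*, *Cd276*, *Adam12*, *Exoc3l* and *Ip6k3*, 1 well held 49.9%, 36.9%, 72.6%, 48% and 26.1% of the reads of the class over all mice.

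*Cd34* was higher in collecting vessel than in other LECs in both control mice and lower in all 5 mutant mice. The edgeR log2 difference of the mutant effect was -5.13 ± 1.09 (SE), with an adjusted p of 0.998.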

How the results depend on the processing

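The 50 genes named for collecting vessel against other LECs kept their direction in all 947 refits run for them. These genes were named from the calls of the main fit and the refits reuse its wells, so a kept direction was likely in advance. The call was lost in 284, among them 41 with equal wells and 25 under the stricter gate. Against the 317 genes called, 1909 passed with DESeq2, 558 against all other LECs, 189 with thinned wells, 19 with equal wells, 162 in mutant mice alone, 10 in control mice alone and 168–244 with a mouse left out. With no replicate block of the mouse it was 254. Of the 317, 150 were called again with thinned wells, 134 under the stricter gate, 120 in mutant mice alone and 18 with equal wells. The share of higher calls moved from 50.2% to 29.2% with DESeq2 and 19.1% under the stricter gate.

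For mutant against control mice, 0 genes in edgeR became 174 with DESeq2, 16 with the classes fitted together and 0–1 with a mouse left out. Replicate numbers of mutant and control mice were taken as names only. Correlations of deviations (-0.014 to 0.014) cannot decide this, since those of the 2 controls mirror each other. The replicate block gave 6 genes. Every other alternative (size factors, no filter, both gates, thinned and equal wells, first plates, plate series or sex as a term, no wells of mixed content) gave 0 each. Beside the main log2 fold changes, *Ccdc3* turned to 0.077 with *Mmrn2* above 2 times *Lyve1*, 0.028 under the stricter gate and 0.16 without control 1, where *Fmo2* and *Serpine2* turned to 0.45 and -0.022. With a mouse left out the 3 genes ran from -0.50 to 0.16, -1.69 to 0.45 and -0.022 to 0.51. For the interaction, DESeq2 called 179 and the stricter gate 1, with 0 in each refit without a mouse. The share difference of -3.89 points turned to 0.82 under the stricter gate and ran from -5.84 to -1.94 with a mouse left out. The causes of these shifts were not tested. Sums of 11–29 wells a mouse, and of 5–17 under the stricter gate, limit the precision of every value.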
